A study of Oryza sativa Japonica Group with 6 samples.

Results

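Among 28834 rice loci on the array, 33 were detected in the leaf blades of wild-type plants and on none of the arrays labelled Line 13. The loci were chosen by their signals on the 6 arrays. At least 1 probe of the locus had to carry the flag for a spot well above background on each of the 3 wild-type arrays. The mean log2 signal of that probe in wild type, scaled to the 75th percentile of the array, had to be -4 or more. In addition, no probe of the locus could carry that flag on any of the 3 arrays labelled Line 13. Probes for microRNAs were left out. Since both labels entered the choice, the difference between the labels is given as a description with no test.

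Gene expression was measured on 6 one-colour oligonucleotide arrays, 1 per sample, with 3 biological replicates in each of 2 groups. Both groups were untreated Nipponbare rice, grown from seed at 25 °C and sampled as the blade of the fourth leaf at the stage of 4 leaves, and each replicate pooled at least 3 plants. One group was wild type. The other was Line 13, a transgenic line that overexpresses a linalool synthase and accumulates linalool. It is 1 line, and the sources used here do not give the promoter or origin of its transgene. No label says that same-numbered replicates were grown together.

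Linalool is a scented monoterpene alcohol that linalool synthases make from geranyl diphosphate in the plastid, and many plants release it from leaves attacked by insects or microbes. On a one-colour array each spot holds a short probe for 1 transcript, and the brightness of the bound dye rises with the amount of labelled RNA. The scanner software flags a spot as well above background when its signal stands clear of the local background by a wide margin, and a laxer flag marks signals that are positive and significant. A spot without the first flag has only an upper limit on its RNA. Rice locus names carry the chromosome after "Os" and a number that rises along it, so Os09g0354900 and Os09g0355400 lie near each other on chromosome 9. In leaf blades, fewer cells of a type that uses a gene and less RNA per cell cannot be told apart.

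The arrays differed in how low they could see. The share of spots well above background ran from 71.4% to 72.3% on the wild-type arrays, and was 72.3%, 85.5% and 81.2% on replicates 1 to 3 of Line 13. The dimmest detected probe lay at -5.94 to -6.14 on the wild-type arrays, and at -5.47, -7.88 and -6.87 on replicates 1 to 3 of Line 13. Line 13 replicate 1 stood apart, with correlations of 0.942 and 0.939 with the other arrays of its label, which correlated at 0.983 with each other, across probes. The wild-type arrays shared 1 slide and scan, and the Line 13 arrays another, so slide and label cannot be told apart. The 7 loci taken as leaf markers, from general knowledge and not from an annotation, were detected on all 6 arrays, and the log2 of their summed level was 10.16 to 10.55 in wild type and 9.09 to 10.11 in Line 13. The 4 loci taken as markers of dividing cells had a log2 summed level of -1.02 to -0.39 in wild type, where 1 of the 4 was detected on every array, and of 2.57 to 3.41 in Line 13, where all 4 were. The root locus of the list was detected on no wild-type array and lay at 4.60 to 4.88 in Line 13. The part of these marker differences in the results below was not tested. Os02g0121700, which general knowledge names as a linalool synthase locus, lay at -3.32, -0.92 and -1.497 in wild type and at -6.52, -5.84 and -3.65 in Line 13, so the groups are named by their labels and each direction is one between labels. The sources used here do not say whether the probe matches the transgene.

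Detection in wild type alone was rare. Of 17104 loci that met the brightness rule in wild type, 95.6% were detected on all 3 Line 13 arrays and 0.193% were the 33 loci detected on none. A further 669 loci were missing on Line 13 replicate 1 alone, the array with the highest detection level, and 47 were detected on replicate 2 alone. The same rule with the labels exchanged gave 1180 of 18391 loci, or 6.42%. The count with the labels exchanged was the larger at each floor tried from -6.0 to 4.0. Since the floor acts on the bright group only, these floors cannot show the part of the unequal detection levels in the gap. That part was not tested. Line 13 replicate 2, the array that saw lowest, had a large part in the count: without it 80 loci met the rule, among them all 33. Without Line 13 replicate 1 the rule gave the same 33.

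**Figure D1:**
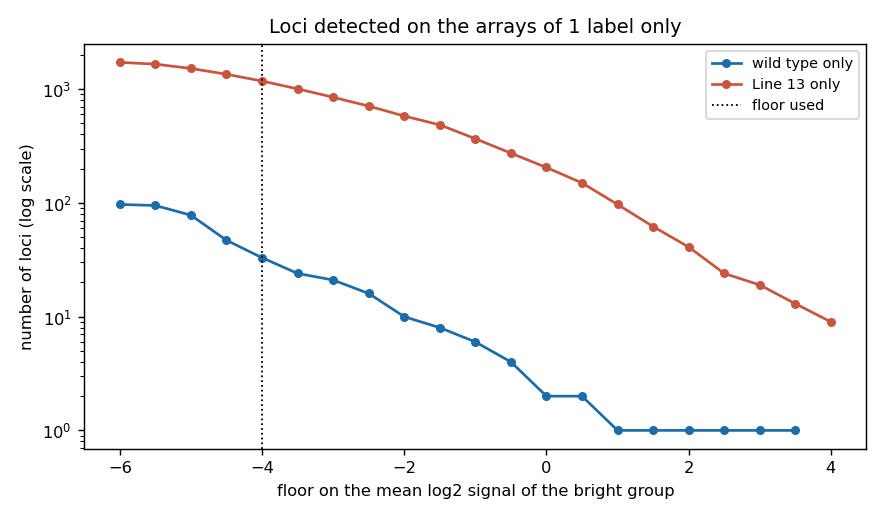
Number of loci detected on all arrays of 1 label and on none of the other (vertical axis, log scale) against the floor on the mean log2 signal of the bright group (horizontal axis). The curve for wild type lies below that for Line 13 at every floor shown, with 33 against 1180 loci at the floor of -4 (dotted line); counts of 0 are not drawn.

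The brightest of the loci was Os01g0383700. Wild-type replicates gave it a processed signal of 9049, 10055 and 11859, and the Line 13 replicates 1.498, 1.37 and 1.61. On the scaled log2 scale it lay at 3.65, 3.51 and 3.63 in wild type (mean 3.60 ± 0.08, SD, n = 3), above 96.7% of the loci detected there, and at -7.76, -10.15 and -9.18 in Line 13. Since no Line 13 value was well above background, the fold is a limit: wild type was at least 1293-fold higher. All 3 Line 13 spots also failed the laxer flag. The next in level, Os04g0280500, was at least 157-fold higher in wild type, with signals of -0.16, 1.09 and 0.74 there.

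These bounds set the wild-type mean against a Line 13 mean in which each array counts at its own signal or at its dimmest detected probe, whichever is higher. Over the 33 loci the bound ran from 6.44-fold to 1293-fold, with a median of 17.3-fold, and it exceeded 10-fold for 24 of them. The median bound was 26.9-fold without Line 13 replicate 1 and 11.9-fold without replicate 2, the arrays with the highest and lowest detection level, which enters the bound. The gap between the dimmest wild-type array and the brightest Line 13 array was 2.06 or more on the log2 scale for each of the 33. This gap is tied to the flags and floor of the rule, and the share of all loci with such a gap was not counted.

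**Figure D2:**
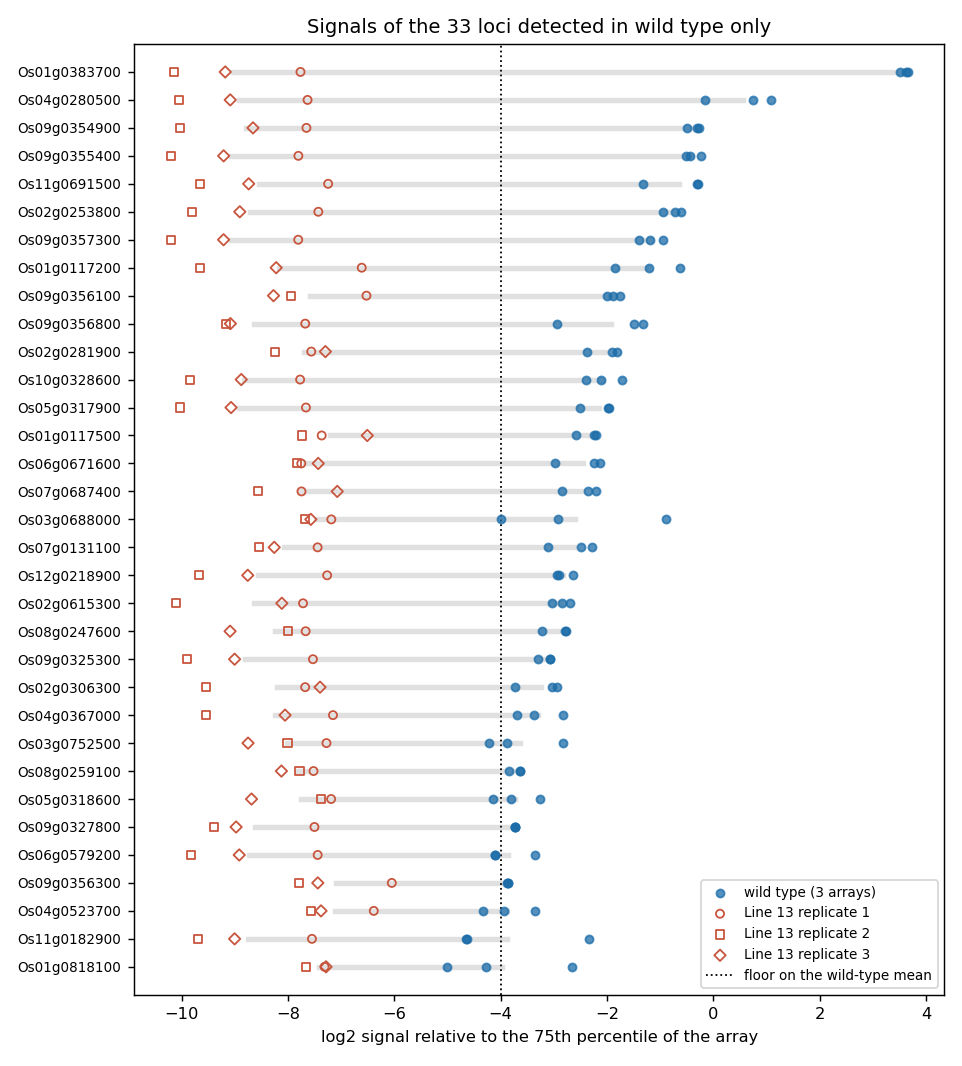
Scaled log2 signal (horizontal axis, 0 at the 75th percentile of the array) of each of the 33 loci (rows, ordered by wild-type mean) on the 3 wild-type arrays (filled) and the 3 Line 13 arrays (open, a symbol per replicate); grey bars join the group means and the dotted line is the floor of -4. Wild-type values run from -4.9996 to 3.65 and Line 13 values from -10.2 to -6.05. The groups overlap for none of the loci, which is tied to the rule that chose them.

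Most of the 33 loci were weakly expressed in wild type. Their median wild-type mean was -2.60, against -0.67 over all loci bright enough for the rule, and 2 of the 33 lay above the 75th percentile of the array. Besides the 2 named above, the bright end held Os09g0354900, with -0.50, -0.26 and -0.31 in wild type, and Os09g0355400, with -0.24, -0.45 and -0.52. Their wild-type signal was at least 83.4-fold and 80.8-fold higher than in Line 13. Os11g0691500 followed, at -0.30, -0.29 and -1.32, and Os02g0253800, at -0.60, -0.73 and -0.94. Both were at least 60-fold brighter in wild type, with bounds of 68.6 and 63.3, and neither had a Line 13 spot that passed the laxer flag. Os09g0357300 lay at -0.94, -1.19 and -1.40 (bound 47.3-fold) and Os01g0117200 at -0.63, -1.21 and -1.85 (bound 45.6-fold). Os09g0356100, Os09g0356800, Os02g0281900 and Os10g0328600 complete the 12 brightest, with bounds from 25.2-fold to 29.0-fold.

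The laxer flag separated the loci further. For 8 of the 33 no Line 13 array gave a positive and significant signal, for 10 loci 1 array did, for 9 loci 2 arrays did, and for 6 loci all 3 did. The 8 were Os01g0383700, Os04g0280500, Os11g0691500, Os02g0253800, Os09g0357300, Os05g0317900, Os09g0325300 and Os06g0579200. Replicate 2 had such a signal for 21 loci, replicate 3 for 18 and replicate 1 for 7, so on the 2 arrays that saw lowest a faint signal was present for many of the 33. Os09g0356100 was the brightest wild-type locus among the 6 with a faint signal on all 3, at -6.52, -7.94 and -8.27 in Line 13 against -1.75, -1.89 and -1.996 in wild type.

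Line 13 signals came nearest to the detection level at Os05g0318600, Os01g0117500, Os04g0523700 and Os01g0818100. At Os05g0318600 the replicate 2 signal of -7.38 lay 0.50 above the dimmest probe detected on that array, yet its own spot was not flagged, and the flag is set against the background of each spot. At Os01g0117500 the replicate 3 signal of -6.51 lay 0.36 above that level, against wild-type signals of -2.21, -2.25 and -2.59.

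The wild-type replicates differed in how well they matched. The range over the 3 wild-type arrays was under 1 on the log2 scale for 25 of the 33 loci. It was widest at Os03g0688000, with signals of -3.997, -2.92 and -0.89, and wide at Os01g0818100, with -2.67, -4.28 and -4.9996. Os11g0182900 lay at -4.66 and -4.64 on replicates 1 and 2 and at -2.33 on replicate 3. Without wild-type replicate 1, 2 or 3 the rule kept 31, 32 and 31 of the 33. Os11g0182900 and Os03g0752500 met the floor only with replicate 3, Os06g0579200 only with replicate 2, and Os01g0818100 and Os04g0523700 only with replicate 1. Os09g0356800 was lower on replicate 1, at -2.94 against -1.32 and -1.501. The narrowest range belonged to Os09g0327800, at -3.74, -3.73 and -3.74, followed by Os09g0356300, Os01g0383700 and Os08g0259100. The median SD over the wild-type arrays was 0.34 for the 33 loci and 0.16 for all loci bright enough for the rule, which are brighter.

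The floor of -4 divided a continuous range. The 3 loci just inside it were Os01g0818100, with a wild-type mean of -3.98, Os11g0182900 at -3.88 and Os04g0523700 at -3.87. Just outside lay Os09g0489800 at -4.02, Os04g0653700 at -4.08 and Os08g0528200 at -4.10, which met the rest of the rule. In all, 64 loci outside the 33 met the rule apart from the floor. A floor of -3 kept 21 of the 33, and one of -5 gave 78 loci.

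Most of the loci rested on a single probe. This was so for 29 of the 33, or 87.9%, against 61.5% of the 17104 loci. The rule asks every probe of a locus to be dim, and the part of this demand in the difference was not tested. With only the qualifying probe asked to be dim, the rule gave 35 loci, among them all 33. At Os09g0355400 both probes were well above background in wild type, with means of -0.40 and -3.14, and neither was in Line 13. At Os09g0325300 both probes behaved alike too, with wild-type means of -3.14 and -3.97. Os12g0218900 had 2 such probes, at -2.83 and -3.48, of which the dimmer carries Os12g0222800 in its probe name. Os09g0356300 is uncertain: the probe that qualified carries Os02g0457200 in its probe name, and the other probe, named for Os09g0356300 alone, was detected on no array of either label. By the array's own naming, 16 of the 33 loci, or 48.5%, had a probe of class mRNA as their brightest, against 79.8% of the 17104 loci. Another 17 had probes of the COMBINER and COMBINER_EST classes, a term that the sources used here do not explain. For 14 of the 16 the probe is placed in the coding sequence and 3′ untranslated region, and for 2, Os03g0752500 and Os06g0671600, in an untranslated region. The array files give no genome coordinates for these loci and no description of their products. In the RefSeq gene table, 0 of the 28834 array loci had a match by name, so the 0 matches among the 33 say nothing particular about them. They are given by locus name.

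Chromosome 9 held 8 of the 33 loci, or 24.2%, against 5.28% of the 17104 loci bright enough for the rule. On the other chromosomes the number ran from 1 to 4. Of the 8, 6 lay in 1 run of 8 consecutive array loci from Os09g0354900 to Os09g0357300, namely Os09g0354900, Os09g0355400, Os09g0356100, Os09g0356300, Os09g0356800 and Os09g0357300. Both counts include the uncertain Os09g0356300. With probes of 2 locus names left out, the rule gave 32 loci and no longer took in Os09g0356300. The other two, Os09g0325300 and Os09g0327800, lay 13 array loci apart, and the second lay 78 array loci before the run. Inside the run, 2 loci broke the pattern. Os09g0356200 was detected on all 6 arrays, at -1.97, -2.15 and -2.43 in wild type and -4.34, -3.86 and -3.01 in Line 13. Os09g0356000 was not detected in wild type and was detected on Line 13 replicates 2 and 3, at -5.16 and -4.10. The run therefore held 1 locus with signal in both labels and 1 with signal in Line 13 alone, between loci detected in wild type only.

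The loci next to the run are those that did not meet the whole rule, and the stretch was chosen after its values were seen. The limma fit across all 22253 features called 28.0% of them lower and 26.8% higher on the Line 13 arrays at adjusted p under 0.05, and it called each of the 33 loci lower, which follows from how they were chosen. In the stretch of 18 array loci from Os09g0351700 to Os09g0357500, 6 of the 12 loci outside the 33 could be tested, and 5 of them fell. Among the loci not tested, Os09g0353700 and Os09g0356000 were detected on Line 13 replicates 2 and 3 only. Os09g0352000 and Os09g0353200, also not tested, were detected on wild-type replicates 2 and 3 only. Os09g0354300, the array locus before the run, was not well above background on any Line 13 array and at -4.85, -3.64 and -3.98 in wild type, under the floor. It met the rest of the rule, so its fall, 1 of the 5, is tied to the same flags. The remaining falls were seen at loci with some detected signal in Line 13. Os09g0356200 fell by 1.56 on the log2 scale (SE 0.36, limma adjusted p = 0.0117) and was detected on every array. Os09g0357500 fell by 1.39 (SE 0.31, limma adjusted p = 0.01003) and Os09g0357400 fell by 2.70 (SE 0.57, limma adjusted p = 0.00819), each detected on 2 of 3 Line 13 arrays. Os09g0352400, farther out, was at -0.09, -0.09 and -0.03 in wild type and 0.36, -0.03 and -0.16 in Line 13, with limma adjusted p = 0.619.

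A pair of loci on chromosome 1, Os01g0117200 and Os01g0117500, stood with 1 array locus between them. That locus, Os01g0117300, was not well above background on any Line 13 array either, and its wild-type signals of -4.62, -4.98 and -5.32 left it under the floor. Since it met the rest of the rule, its fall, counted below, is tied to the same flags. Around the pair, in a stretch of 24 array loci chosen in the same way, 19 of the 22 others could be tested, of which 10 fell and 1 rose. Os01g0116500 was the brightest of these in wild type, at 3.39, 3.06 and 2.95, and lay at -2.92, -0.92 and -0.93 in Line 13, so that it fell by 4.73 on the log2 scale (SE 0.56, limma adjusted p = 0.000801). Os01g0115700, detected on 2 of 3 Line 13 arrays, fell by 4.73 as well (SE 0.29, limma adjusted p = 5.39e-05). Os01g0116600, between them and the pair, had 0.69 as its log2 difference (SE 0.28, limma adjusted p = 0.0748), so the falls did not take in every locus of the stretch. On chromosome 5, Os05g0317900 and Os05g0318600 lay 3 array loci apart, and 2 of the 5 other loci tested in a stretch of 9 fell and 0 rose. Next to them, Os05g0318700 went from -0.36, -0.49 and -0.46 in wild type to -5.43, -2.44 and -2.44 in Line 13, where 2 of 3 arrays detected it (limma adjusted p = 0.0196), while Os05g0318300, between the pair, had a log2 difference of -0.60 (SE 0.29, limma adjusted p = 0.117). Around Os09g0325300 and Os09g0327800, in a stretch of 19 array loci, 4 of 11 other loci tested fell and 2 rose. One of the rises was at Os09g0326100, which lay at -8.04, -8.04 and -8.22 in wild type, detected on no array, and at -2.39, -2.68 and -3.23 in Line 13, detected on all 3.

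The same description was made for the surroundings of all 33 loci. Of 161 other array loci within 3 positions of one of the 33, 118 could be tested. Of these, 55 fell, or 46.6%, and 21 rose, or 17.8%, against 27.9% lower and 26.9% higher over all loci outside the 33. The median log2 difference of these neighbours was -0.80, against -0.07. Directly next to one of the 33, 24 of 43 tested loci fell and 3 rose. Among the loci directly next to the 33, 4 met the rule apart from the floor, against 64 of all 28801 loci outside the 33. Their direction is tied to the same flags. At 4 to 10 positions 29.1% of 230 tested loci fell and 23.9% rose, with 17 of 38 falling at distance 6 and 2 of 28 at distance 9. Without chromosome 9, 50 of 109 neighbours fell, or 45.9%. Around the loci that stood alone, outside the run and the pairs, 46 of 102 fell, or 45.1%. In wild type the tested neighbours had a median mean of -1.98, against -1.55 over all tested features. Without Line 13 replicate 1 the share of neighbours that fell was 48.4%, against 31.6% over all loci, and without replicate 2 it was 41.5% against 22.1%. With a normexp background correction and an offset of 50, chosen after the data were seen, 34 of 118 neighbours fell, or 28.8%, against 20.7% over all loci. The neighbours share arrays and slides with the 33 loci and with each other, so these shares are a description of the 6 arrays.

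**Figure D3:**
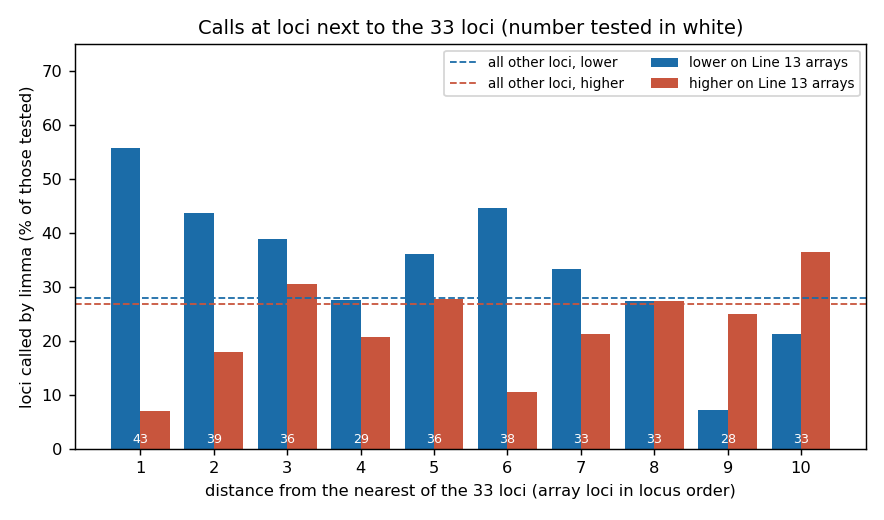
Share of tested loci called lower (blue) and higher (red) on the Line 13 arrays by limma (vertical axis, percent) against distance from the nearest of the 33 loci, counted in array loci (horizontal axis; 28 to 43 loci tested per distance), with dashed lines for all other loci. Lower calls reached 55.8% at distance 1, where 6.98% were higher, and were 43.6%, 38.9%, 27.6%, 36.1% and 44.7% at distances 2 to 6 and 7.14% at distance 9, so the share did not fall evenly with distance.

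The locus outside the 33 whose 6 signals lay nearest to those of Os01g0383700 was Os04g0561500, at a Euclidean distance of 7.52 over the 6 arrays. It was at 2.81, 3.00 and 2.89 in wild type and at -4.65, -5.21 and -4.60 in Line 13, where it was detected on all 3 arrays. The next, Os12g0199000, lay at a distance of 8.37, followed by Os06g0581500, Os04g0171800 and Os08g0249900 at 8.74 to 8.82. Each of these 5 was detected on at least 2 of the 3 Line 13 arrays. They met the brightness rule in wild type and lay outside the 33, so detection on some Line 13 array was fixed in advance.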

How the data were processed

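Per the file headers, spots were measured with Agilent Feature Extraction 10.10.1.1, and the deposited processed intensity is background-subtracted, detrended within the array and linear. Flags of each spot come from the same files. Per the labels, Cy3 targets came from 100 ng of RNA and hybridised for 17 h at 65 °C. The authors' deposited value table is the same intensity times 1 constant per array (1.61 to 7.66), whose choice the sources used here do not give; it was an alternative.

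Log2 processed signals were scaled by subtracting that of the 75th percentile over the non-control spots of an array, and averaged per probe. A probe carried a flag on an array if 50% or more of its spots did. Locus names came from the systematic name or, failing that, the probe name; for 1358 probes these differ and the systematic name was used. Each of the 33 loci is shown by its brightest probe in wild type. For tests, limma 3.58.1 in R 4.3.3 (lmFit, eBayes, no block) was run on loci with a probe well above background on all 3 arrays of a group, represented by the brightest such probe over the 6 arrays. Spots flagged as outliers were left out, and p-values were adjusted by Benjamini-Hochberg over all 22253 features, with a threshold of 0.05. Features without a locus name entered by probe. The limma fit was also run on simulated arrays with known changes and independent noise. Those arrays hold no difference between slides, so the simulation does not bear on it. Python 3.11.15 with numpy 2.4.6 and pandas 2.3.3 made the tables, and matplotlib 3.10.9 the figures.

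Named loci were the 12 brightest, those with several detected probes, those near each other, those at the floor, those nearest to detection, those with the widest and narrowest range in wild type, and the 5 nearest in pattern to the brightest. The stretches on chromosomes 1, 5 and 9 and the loci named in them were chosen after their values were seen. The loci, lists and tests were all chosen with earlier results of these data known. The labels call the replicates biological pools and do not say whether they were grown apart. The number of arrays limits the precision.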

Additional observations from a re-analysis of the deposited data

How the results depend on the processing

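The number of loci detected in wild type only was 33. It was 21 with a floor of -3, 78 with a floor of -5, and 97 with no floor or with the floor counted from array medians, which is a lower floor by construction. With the laxer flag it was 8, all among the 33, and with the labels exchanged 453 in place of 1180. Leaving out 1 array gave 32 to 80 loci, and 1174 to 1294 with the labels exchanged. The median bound was 11.9-fold to 26.9-fold when 1 array was left out. A normexp background correction, chosen after the data were seen and run on median signals since the files hold no mean signal, adds an offset of 50 to every signal. With it 21 of the 33 were called lower, with a median log2 difference of -1.68, and 34 of 118 neighbours fell, or 28.8%, against 20.7% over all loci. Each of the other fits called all 33 lower, except the filter on all 6 arrays, under which none of them can be tested. None of the 33 changed sign in these fits. Their calls and signs are tied to how the loci were chosen, so they are no support for the difference. Array medians gave 8336 lower and 4688 higher features, 36.0% higher in place of 48.9%, and moved the median of all features from -0.07 to -0.38. With the replicate number as a block 10919 features were called in place of 12189, and 53 neighbours fell. Same-numbered arrays had deviations that correlated at 0.109, -0.0252 and -0.00436, and differently numbered arrays at -0.166 to 0.209. With 3 arrays per group these values cannot tell whether the numbers pair the samples. Leaving out 1 array gave 8774 to 14616 calls, and 44 to 62 neighbours that fell. Slide as a block could not be fitted, since each label lies on its own slide. Since no Line 13 signal of the 33 was well above background, every fold is a bound.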
